A study of Mus musculus with 12 samples.

Results

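Neurexins, neuroligins and their relatives hold the pre- and postsynaptic membranes of a synapse together, and 9 of the 55397 genes in the count table of cultured mouse neurons were followed here. They were taken by gene symbol: the neurexins *Nrxn2* and *Nrxn3*, the neuroligins *Nlgn1*, *Nlgn2* and *Nlgn3*, the leucine-rich repeat proteins *Lrrtm1* and *Lrrtm2*, and *Cntnap2* and *Cntn4* of the Caspr and contactin families. All 9 passed the filter on low counts that 18264 genes passed. RNA was sequenced from primary cultures of 3 *Myt1l* (+/−) and 3 *Myt1l* (+/+) pups, the mutants carrying a germline 7 bp deletion in exon 6 that shifts the reading frame of this neuronal zinc finger repressor, and 2 libraries were read per animal. Every culture was started at postnatal day 0 (P0), received 2 µM Ara-C, which kills dividing cells, 3 days after plating, and was harvested at day in vitro 11.

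The sample labels describe cortex of male C57BL/6J mice, while the study's methods give hippocampus or cortex for such cultures and C57BL/6N as the strain. The (+/+) animal 511 was female by its RNA, with 18805 *Xist* counts and 0 counts from Y-linked genes, against 5 to 10 *Xist* counts in the other 5 animals. The mutant *Myt1l* mRNA is described as not decaying, so *Myt1l* counts cannot check the genotype labels. Both libraries of an animal were summed, giving 40642699 to 43745258 counts per (+/−) animal and 43129302 to 52833161 counts per (+/+) animal, and an animal was 1 replicate. Whether the animals came from separate litters is not stated, so p-values measure only the spread between these cultures. Animal 505 held the fewest neuronal transcripts, its 12 pan-neuronal markers summing to 2634 CPM against 4536 to 5894 CPM in the other 5 animals. Animal 513 held 13788 CPM of astrocyte markers, closer to the 12748 to 14062 CPM of (+/−) cultures than to the 9053 and 9226 CPM of the other (+/+) cultures. Levels are given as CPM, counts scaled to the size of the library, and genes were compared with the quasi-likelihood test of edgeR at an adjusted p under 0.1, with the standard error (SE) of each log2 fold change.

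A neurexin on the axon terminal binds a neuroligin or an LRRTM on the facing dendrite, and cytoplasmic scaffold proteins on each side tie these pairs to release sites and receptors. NLGN1 and the LRRTMs are found mainly at excitatory synapses, NLGN2 mainly at inhibitory ones, and NLGN3 at both. CNTNAP2, a neurexin-related protein that clusters potassium channels along the axon, and CNTN4, a lipid-anchored contactin, act in axon contact and guidance. In humans, several of these genes are known for variants linked to autism.

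The 3 neuroligins are close relatives, so a stretch of their coding sequence is shown to see how far reads could tell them apart. These are the last 60 coding bases before the stop codon of a GENCODE M21 transcript of each gene on mm10, which code for the tail that binds PDZ scaffolds such as PSD-95. Capitals mark the 37 positions at which the 3 genes differ.
Nlgn1: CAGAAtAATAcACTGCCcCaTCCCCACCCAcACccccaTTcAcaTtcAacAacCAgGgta
Nlgn2: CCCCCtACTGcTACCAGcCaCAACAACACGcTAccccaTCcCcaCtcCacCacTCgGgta
Nlgn3: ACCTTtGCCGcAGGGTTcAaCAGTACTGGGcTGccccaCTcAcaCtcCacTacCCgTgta
The genes share the final codon and differ at most bases before it. Over the annotated transcripts the longest exact run shared by any pair was 17 bases for *Nlgn1* and *Nlgn2* and 23 bases for either of them and *Nlgn3*. *Nrxn2* and *Nrxn3* shared at most 23 bases, *Lrrtm1* and *Lrrtm2* at most 13 bases, and none of these 5 pairs shared a stretch of a full read of 100 bases.

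All 9 genes had a negative log2 fold change, (+/−) over (+/+) cultures, from −0.63 for *Lrrtm1* to −0.10 for *Nlgn3* with a median of −0.42, where 49.6% of all genes tested were negative and their median was 0.0031. No member passed the test of edgeR (0% of all genes tested did, smallest adjusted p = 0.166), and 3 members, *Nlgn2*, *Lrrtm1* and *Nrxn2*, had an unadjusted p under 0.05, as did 9.11% of all genes in the same direction. DESeq2, run on the same animals, called 2 members lower, *Nlgn2* (adjusted p = 0.034) and *Lrrtm1* (adjusted p = 0.074), against 4.33% of all genes called lower. Over 13 alternatives the adjusted p of *Nlgn2* ran from 0.0098 to 0.49 and that of *Lrrtm1* from 0.019 to 0.51. Both lower ends came from a limma fit to 12 libraries, which enters the 2 libraries of an animal separately. The other alternatives went no lower than the DESeq2 values. In 4 members (*Nrxn2*, *Nlgn2*, *Lrrtm1* and *Cntnap2*) every (+/−) animal lay below every (+/+) animal, as it did in 13.5% of all genes tested. For each of those 4 a two-sided exact permutation test gave p = 0.1, the smallest that 3 against 3 animals allow.

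One (+/−) and one (+/+) animal stood out within their genotype. The (+/−) animal 505 was the lowest of all 6 in every one of the 9 genes, at 43.5% of the (+/+) mean for *Lrrtm1* up to 77.7% for *Nlgn3*. The (+/+) animal 513 was the lowest (+/+) animal in 7 of the 9 genes, and without it edgeR called 1 member, *Nlgn2* (log2 fold change −0.62, adjusted p = 0.059), and 5.95% of all genes as lower. Without 505 no member was called, and the log2 fold changes of *Nlgn3* (0.023) and *Lrrtm2* (0.15) turned positive while the other 7 stayed negative.

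**Figure D1:**
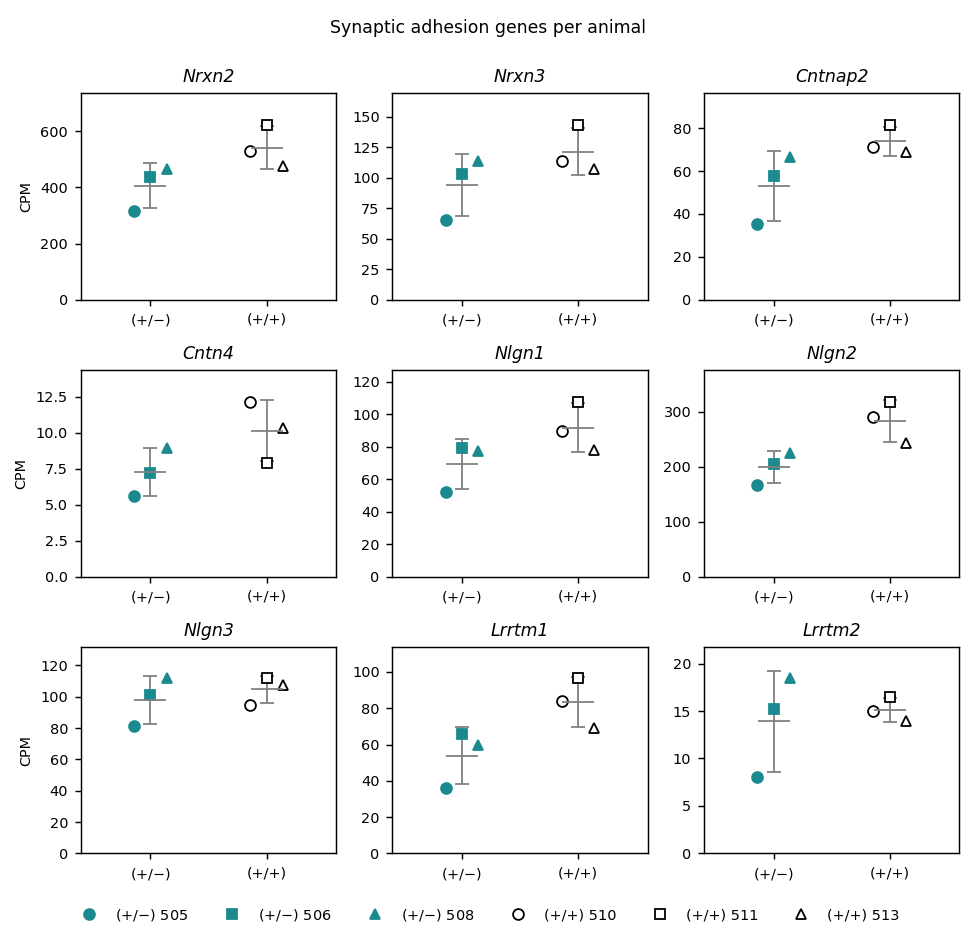
CPM of each gene (vertical axis, from 0) in the 3 (+/−) cultures (filled symbols) and the 3 (+/+) cultures (open symbols), with the mean and SD of each genotype as bars. The (+/−) culture 505 is the lowest point in all 9 panels, and the genotypes do not overlap for *Nrxn2*, *Cntnap2*, *Nlgn2* and *Lrrtm1*.

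Neurexins are the presynaptic partners of the set. *Nrxn2* (ENSMUSG00000033768.17, chr19:6418731-6544169, plus strand, mm10) was at 315, 438 and 465 CPM in (+/−) cultures 505, 506 and 508, against 529, 623 and 475 CPM in (+/+) cultures 510, 511 and 513. The genotypes did not overlap, but the gap between (+/−) 508 and (+/+) 513 was narrow. The means were 406 ± 79.8 CPM for (+/−) and 542 ± 75.2 CPM for (+/+) animals (n = 3 each, SD), a log2 fold change of −0.42 (SE 0.17, edgeR adjusted p = 0.22).

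*Nrxn3* (ENSMUSG00000066392.12, chr12:88722876-90334935, plus strand), which spans the second longest stretch of genome of the 9 genes, was less abundant and less separated. It was at 65.4, 103 and 113 CPM in (+/−) cultures, against 113, 143 and 107 CPM in (+/+) cultures. Culture 508 reached the level of 2 (+/+) cultures, so the genotypes overlapped. The log2 fold change of −0.37 (SE 0.21, edgeR adjusted p = 0.30) shrank to −0.17 without 505. The table counts whole genes, so the long and short neurexin forms made from separate promoters were not resolved.

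Neuroligins, the postsynaptic receptors of neurexins, comprised *Nlgn2*, with separated genotypes, and *Nlgn1* and *Nlgn3*, whose genotypes overlapped. *Nlgn2* (ENSMUSG00000051790.15, chr11:69823122-69837784, minus strand) was at 167, 205 and 224 CPM in (+/−) cultures, against 290, 319 and 242 CPM in (+/+) cultures. Each (+/−) culture was below each (+/+) culture, and the mean was 70.2% of that in (+/+). With 199 ± 29.1 CPM for (+/−) and 284 ± 38.4 CPM for (+/+) animals (n = 3 each, SD), its log2 fold change of −0.51 (SE 0.15, unadjusted p = 0.0092, edgeR adjusted p = 0.17) had the smallest p of the 9 genes. It ran from −0.62 to −0.40 with 1 animal left out.

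*Nlgn1* (ENSMUSG00000063887.13, chr3:25426215-26332460, minus strand), the neuroligin of excitatory synapses, was at 51.8, 78.9 and 77.2 CPM in (+/−) cultures, against 89.5, 108 and 77.8 CPM in (+/+) cultures. Only the level of (+/+) 513 lay among those of (+/−) cultures. Its log2 fold change was −0.40 (SE 0.18, edgeR adjusted p = 0.24), and −0.27 without the female animal 511.

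*Nlgn3* (ENSMUSG00000031302.16, chrX:101299168-101325963, plus strand) showed the smallest difference of the 9. It was at 81.3, 101 and 112 CPM in (+/−) cultures, against 94.8, 112 and 107 CPM in (+/+) cultures. All but 505 lay within one range, and the log2 fold change was −0.10 (SE 0.13, edgeR adjusted p = 0.65). Of the exon bases of *Nlgn3*, 3823 of 9271 (41.2%) are also exon of *Gm21986*, a transcript on the same strand, so its counts depend on how shared reads were treated, which the sources used here do not give. *Gm21986* had 64.8, 77.2 and 82.5 CPM in (+/−) cultures, against 72.9, 85.8 and 81.4 CPM in (+/+) cultures, and the same log2 fold change of −0.10 (SE 0.11, edgeR adjusted p = 0.60).

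Of the LRRTMs, the other postsynaptic neurexin ligands, *Lrrtm1* had separated genotypes and *Lrrtm2* did not. *Lrrtm1* (ENSMUSG00000060780.2, chr6:77242689-77257791, plus strand) was at 36.2, 65.9 and 59.7 CPM in (+/−) cultures, against 84.2, 96.4 and 69.1 CPM in (+/+) cultures. The genotypes did not overlap, and (+/−) 505 held less than any other animal by a wide margin. The means were 53.9 ± 15.7 CPM for (+/−) and 83.3 ± 13.7 CPM for (+/+) animals (n = 3 each, SD), which gave the most negative log2 fold change of the set, −0.63 (SE 0.22, unadjusted p = 0.024, edgeR adjusted p = 0.19), and 3.70% of all genes tested lay below it. It stayed between −0.81 and −0.41 with 1 animal left out. *Lrrtm1* lies within the span of *Ctnna2*, an adhesion-linked catenin on the opposite strand, with 0 shared exon bases, and *Ctnna2* had a log2 fold change of −0.14 (SE 0.11, edgeR adjusted p = 0.41).

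*Lrrtm2* (ENSMUSG00000071862.3, chr18:35209003-35215024, minus strand) was at 8.09, 15.3 and 18.4 CPM in (+/−) cultures, against 15.0, 16.4 and 13.9 CPM in (+/+) cultures. Animal 508 was the highest and 505 the lowest of all 6, so the (+/−) cultures enclosed the (+/+) ones. Its log2 fold change of −0.12 (SE 0.27, edgeR adjusted p = 0.78) ran from −0.38 to 0.15 with 1 animal left out. Libraries of the same animal also differed most for this gene, by up to 0.27 on the log2 scale, where the median over the 9 genes and 6 animals was 0.034.

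*Cntnap2* and *Cntn4*, the axonal members, had the same log2 fold change with different levels. *Cntnap2* (ENSMUSG00000039419.17, chr6:45059357-47304213, plus strand) was at 35.1, 57.6 and 66.6 CPM in (+/−) cultures, against 71.4, 81.6 and 68.7 CPM in (+/+) cultures. The genotypes did not overlap, with (+/−) 508 just under (+/+) 513. The log2 fold change was −0.48 (SE 0.21, edgeR adjusted p = 0.23), and −0.25 without 505.

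*Cntn4* (ENSMUSG00000064293.14, chr6:105677660-106699310, plus strand) was the least abundant member, at 5.62, 7.22 and 8.97 CPM in (+/−) cultures, against 12.2, 7.92 and 10.4 CPM in (+/+) cultures. The overlap came from the female (+/+) animal 511, which was below (+/−) 508. Without 511 the log2 fold change was −0.64, against −0.48 with it (SE 0.22, edgeR adjusted p = 0.23).

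**Figure D2:**
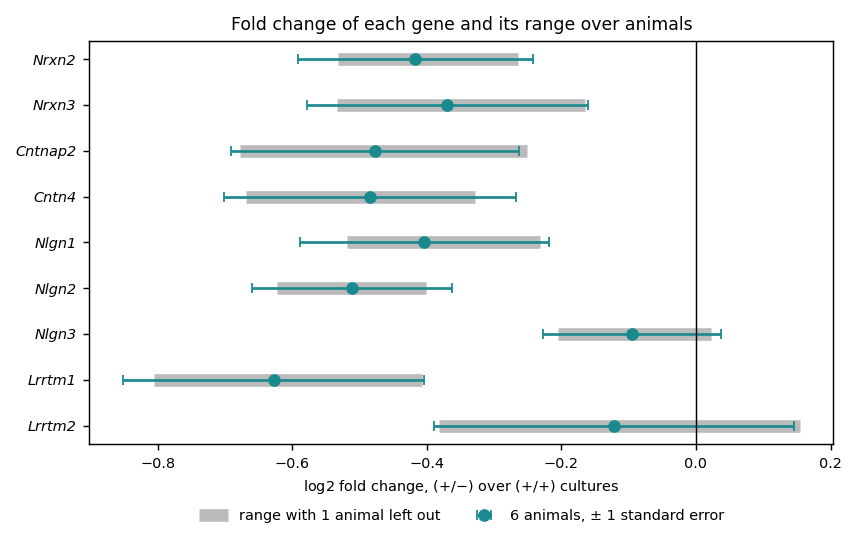
Log2 fold change, (+/−) over (+/+) cultures, of each gene with its standard error (points and lines) and its range when 1 animal is left out (grey bars). The grey bars of *Nlgn3* and *Lrrtm2* cross 0, and those of the other 7 genes stay below it.

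Some members share bases with a gene on the opposite strand, and without the strand setting of the counting tool reads there cannot be assigned with certainty. *Nlgn1* shares 9.16% of its exon bases with *A830092H15Rik*, which had 0.617, 1.06 and 1.50 CPM in (+/−) cultures, against 0.423, 0.890 and 0.983 CPM in (+/+) cultures. *Nrxn2* shares 4.94% with *Slc22a12*, a urate transporter gene, at 2.91, 2.97 and 3.39 CPM in (+/−) cultures, against 0.961, 0.823 and 1.87 CPM in (+/+) cultures, and 1.5% with *Gm14964*. *Lrrtm2* shares 1.58% with *Ctnna1*, which was at 403, 328 and 330 CPM in (+/−) cultures, against 273, 228 and 324 CPM in (+/+) cultures. These levels were far above those of *Lrrtm2*, and the log2 fold change of *Ctnna1* was 0.36. Whether *Ctnna1* reads entered the *Lrrtm2* counts was not tested. The levels of *A830092H15Rik*, *Slc22a12* and *Gm14964* were far below that of the member they overlap, and all 4 partners had positive log2 fold changes where the members had negative ones.

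Divided by exon length, so that genes can be ranked against each other, the 9 mean levels stood in the same order in both genotypes. *Nlgn2* was first, at 34.4 ± 5.03 CPM per kb of exon in (+/−) and 49.0 ± 6.64 CPM per kb in (+/+) cultures, and *Nrxn2* second, at 29.4 ± 5.78 CPM per kb in (+/−) and 39.3 ± 5.45 CPM per kb in (+/+) cultures (SD, n = 3 each). The ranges of these 2 genes overlapped in both genotypes, so their order was not resolved. *Lrrtm1* followed at 17.8 CPM per kb in (+/−) and 27.5 CPM per kb in (+/+) cultures, then *Nlgn3* at 10.6 CPM per kb in (+/−) and 11.3 CPM per kb in (+/+), and *Nrxn3* at 7.40 CPM per kb in (+/−) and 9.57 CPM per kb in (+/+). *Cntnap2* was at 5.18 CPM per kb in (+/−) and 7.21 CPM per kb in (+/+) cultures, close to *Nlgn1* at 5.16 CPM per kb in (+/−) and 6.83 CPM per kb in (+/+). *Lrrtm2*, at 2.31 CPM per kb in (+/−) and 2.51 CPM per kb in (+/+), and *Cntn4*, at 0.857 CPM per kb in (+/−) and 1.20 CPM per kb in (+/+), were lowest, each apart from its neighbours in both genotypes. In (+/−) cultures neighbours from *Lrrtm1* down to *Nlgn1* overlapped with each other. In (+/+) cultures *Lrrtm1* stood apart from *Nlgn3*, and *Nrxn3* from *Cntnap2*, while *Nlgn3* overlapped with *Nrxn3* and *Cntnap2* with *Nlgn1*.

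The start regions of *Nlgn2* and *Lrrtm1* are shown because these 2 genes were called lower by DESeq2. They are the 250 bases before the RefSeq start on GRCm38.p6 (mm10), at chr11:69837785-69838034 (minus strand) for *Nlgn2* and chr6:77242227-77242476 (plus strand) for *Lrrtm1*, with CG dinucleotides in capitals.
Nlgn2: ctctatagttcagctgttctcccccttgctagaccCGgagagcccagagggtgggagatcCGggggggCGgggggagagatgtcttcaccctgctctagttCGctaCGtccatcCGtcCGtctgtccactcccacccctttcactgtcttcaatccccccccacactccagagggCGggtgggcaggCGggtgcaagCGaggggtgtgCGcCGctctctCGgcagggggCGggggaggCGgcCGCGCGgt
Lrrtm1: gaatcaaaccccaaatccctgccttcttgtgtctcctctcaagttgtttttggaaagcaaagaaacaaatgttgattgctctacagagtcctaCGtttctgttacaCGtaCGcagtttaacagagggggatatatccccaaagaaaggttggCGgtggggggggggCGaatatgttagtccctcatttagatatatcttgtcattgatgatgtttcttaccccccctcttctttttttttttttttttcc
The *Nlgn2* window held 18 CG, with 78.3% of all RefSeq windows of this length holding fewer, and the *Lrrtm1* window held 5 CG, with 44.4% holding fewer. The letters AAAGTT, the core recognised by MYT1 family zinc fingers, were searched on both strands in windows from 250 bases before to 50 bases after the start. They stood in 0 of the 11 windows searched for 6 members (*Nrxn3*, *Nlgn1*, *Nlgn2*, *Lrrtm1*, *Cntnap2* and *Cntn4*). For all genes they stood in 4617 of 32851 windows (14.1%). The result for the 6 members says only that these letters are not in those windows. No result is given for windows of the other members. AAAGTT was the only motif searched.

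Ratios of counts between relatives within an animal do not depend on library size. *Lrrtm1* had 4.47, 4.32 and 3.24 counts for each *Lrrtm2* count in (+/−) cultures, against 5.60, 5.86 and 4.96 in (+/+) cultures. The log2 ratio was lower by 0.46 in (+/−) cultures and the genotypes did not overlap (difference −0.46, two-sided exact permutation p = 0.1, the smallest possible). For comparison, the ratio to *Lrrtm2* was separated in this direction for 3.29% of all genes tested. In library 1 of each animal alone the genotypes overlapped, with a ratio of 4.84 in (+/−) 505 and 4.75 in (+/+) 513, and in library 2 alone they did not overlap.

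*Nlgn3* had 0.486, 0.492 and 0.497 counts for each *Nlgn2* count in (+/−) cultures, against 0.327, 0.351 and 0.443 in (+/+) cultures. The (+/−) cultures agreed closely with each other and lay above every (+/+) culture (difference in log2 ratio 0.41, two-sided exact permutation p = 0.1), but 59% of all genes tested showed the same separation when divided by *Nlgn2*. It was therefore not particular to *Nlgn3*. The log2 ratios of *Nlgn1* to *Nlgn2* (difference 0.10), *Nrxn2* to *Nrxn3* (−0.03) and *Cntn4* to *Cntnap2* (0.04) overlapped between the genotypes. Over the 5 ratios no test could pass a threshold of 0.05 with 3 animals against 3.

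**Figure D3:**
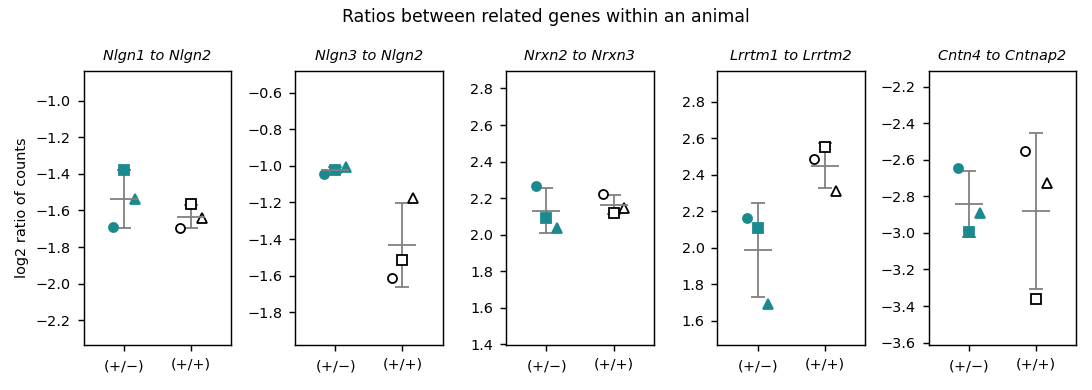
Log2 ratio of counts between related genes (vertical axes, each spanning the same range) in the (+/−) cultures (filled) and the (+/+) cultures (open), with means and SD. *Nlgn3* to *Nlgn2* is separated upward and *Lrrtm1* to *Lrrtm2* downward in (+/−) cultures, and the other 3 ratios overlap.

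These are bulk cultures, in which fewer cells of a type and less RNA per cell cannot be told apart, so marker genes of the cell types were read from the same fit. All 12 pan-neuronal markers were negative (median log2 fold change −0.46), summing to 2634, 4536 and 5012 CPM in (+/−) cultures, against 5346, 5894 and 5075 CPM in (+/+) cultures. All 7 excitatory neuron markers (median −0.50) and 6 of 7 inhibitory neuron markers (median −0.63) were negative as well. As for the adhesion genes, edgeR called 0 of these markers. DESeq2 called 2 pan-neuronal, 3 excitatory and 2 inhibitory markers lower, against 4.33% of all genes.

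Markers of other cells mostly had positive fold changes. They were positive for 7 of 9 astrocyte markers (summed level 12748 to 14062 CPM in (+/−) and 9053 to 13788 CPM in (+/+) cultures) and 8 of 8 microglia markers (85.2 to 154 CPM in (+/−) and 68.6 to 82.6 CPM in (+/+) cultures). Choroid plexus and ependymal markers were positive for 7 of 8, with 1149 to 2219 CPM in (+/−) and 521 to 719 CPM in (+/+) cultures and no overlap. Positive fold changes were also seen in 5 of 7 tested oligodendrocyte lineage markers (106 to 129 CPM in (+/−) and 85.6 to 108 CPM in (+/+) cultures) and in 6 of 7 tested fibroblast and vascular markers (347 to 1186 CPM in (+/−) and 195 to 670 CPM in (+/+) cultures). DESeq2 called 7 choroid plexus and ependymal, 3 microglia and 2 astrocyte markers higher, against 1324 of 17844 genes. It called 0 oligodendrocyte lineage and 0 fibroblast and vascular markers, and edgeR called 0 on any of these lists. No marker on these lists was at 0, while *Sox10*, *Mog* and *Cldn5* were too low to be tested. The part of cell composition in the levels of the adhesion genes was not tested.

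Set against the mean of the pan-neuronal markers in the same animal, 7 of the 9 genes showed no separation. Their mean differences lay between −0.16 (*Lrrtm1*) and 0.10 (*Nrxn3*) on the log2 scale, but some joined shifts of opposite sign. Relative to the (+/+) mean, *Nlgn2* was at 0.32, −0.16 and −0.20 in (+/−) 505, 506 and 508, and *Nlgn1* at 0.26, 0.09 and −0.11. *Cntnap2* followed the neuronal markers most closely, at 0.01, −0.06 and −0.02 relative to the (+/+) mean in (+/−) cultures, against −0.03, 0.01 and 0.01 in (+/+) cultures. Every (+/−) animal lay above every (+/+) animal for *Nlgn3* (0.71, 0.25 and 0.22 in (+/−), against −0.12, −0.04 and 0.16 in (+/+) cultures) and for *Lrrtm2* (0.18, 0.31 and 0.41 in (+/−), against 0.01, −0.01 and −0.0009 in (+/+) cultures). The same held for 36.9% of all genes tested, and 0 members, against 0.454% of all genes, were separated downward. With 1 animal left out single members were separated downward, *Nlgn2* without (+/−) 505, *Lrrtm1* without (+/+) 513 and *Cntnap2* without (+/+) 510. The share of 0.454% is for all animals, and none was computed with 1 animal left out. Genotypes separate more easily with fewer animals, so these separations lack a background. *Lrrtm2* overlapped in library 1 alone. With excitatory neuron markers in place of pan-neuronal ones *Nrxn2* and *Nrxn3* were separated upward too, by 0.11 and 0.14. The share of all genes separated upward against excitatory markers was not computed, so these separations lack a background.

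**Figure D4:**
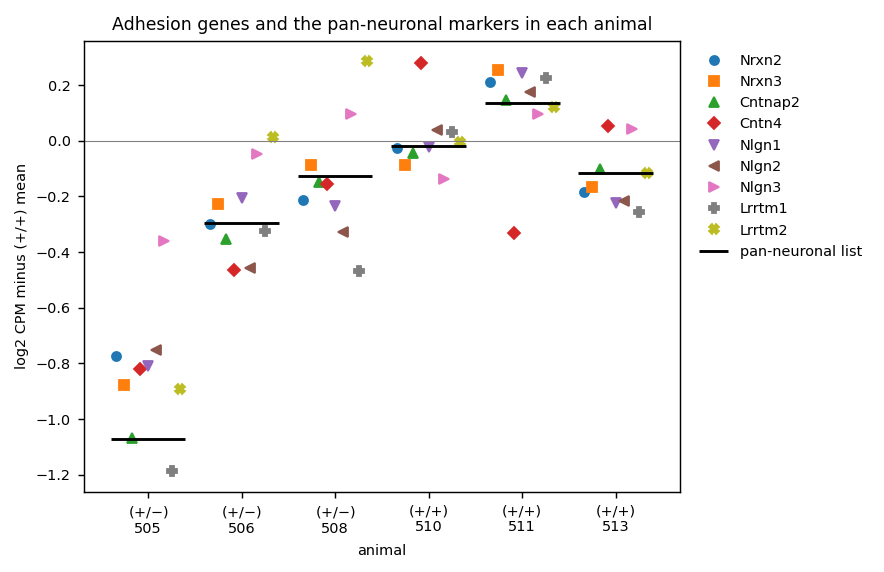
Log2 CPM of the 9 genes (symbols) and mean log2 CPM of the 12 pan-neuronal markers (black lines), each minus its (+/+) mean, in the 6 animals. The black line and the symbols are lowest in (+/−) 505, where most symbols lie above the line, *Cntnap2* on it and *Lrrtm1* below it. *Nlgn3* and *Lrrtm2* lie above the line in all 3 (+/−) cultures.

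Of 10918 other genes with a mean of at least 10 CPM, those nearest to the mean pattern of the 9 over the 6 animals were *Ttll7*, a tubulin-modifying enzyme, at a root mean square distance of 0.012 on the log2 scale, *Gabbr1*, a subunit of the GABA-B receptor (0.016), *Rusc1* (0.020), *Chrnb2*, a nicotinic acetylcholine receptor subunit (0.024), and *Ankrd13d* (0.030). *Gabbr1* was at 225, 340 and 366 CPM in (+/−) cultures, against 400, 450 and 366 CPM in (+/+) cultures. Like the adhesion genes it was lowest in 505, and (+/−) 508 and (+/+) 513 met. This likeness over 6 animals is a description only.

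Further adhesion genes, which bind neurexins or stand beside them at the synapse, were read from the same fit as lists. Among 30 other neurexin family members, partners and related ligands, 24 were negative (median log2 fold change −0.36), 10 had every (+/−) animal below every (+/+) animal and 7 had an unadjusted p under 0.05 in that direction. In the other direction *Dag1*, which encodes dystroglycan and was named after its values were seen, was separated, at a log2 fold change of 0.32 (SE 0.13, unadjusted p = 0.041, edgeR adjusted p = 0.21). No gene of this or the next 4 lists was called by edgeR. DESeq2 called 6 of the 30 lower, and none higher. For comparison with this and the next 4 lists, 49.6% of all genes tested were negative and 13.5% were separated downward. Of all genes, 9.11% had an unadjusted p under 0.05 downward from edgeR, and DESeq2 called 4.33% lower.

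The largest differences in this list were those of *Cbln4* and *Cbln1*, members of the cerebellins, secreted proteins that bridge neurexins to postsynaptic receptors. *Cbln4* was at 1.50, 1.28 and 1.87 CPM in (+/−) cultures, against 4.48, 3.43 and 3.25 CPM in (+/+) cultures. The genotypes were well apart, at a log2 fold change of −1.27 (SE 0.22, edgeR adjusted p = 0.17). *Cbln1* was at 6.48, 8.91 and 9.61 CPM in (+/−) cultures, against 18.9, 21.5 and 12.6 CPM in (+/+) cultures (log2 fold change −1.08, SE 0.23, edgeR adjusted p = 0.17). The cerebellin *Cbln2*, named after its values were seen, had a log2 fold change of 0.02 (SE 0.29, edgeR adjusted p = 0.96), and its genotypes overlapped. *Flrt3*, a ligand of latrophilins and teneurins, had a log2 fold change of −0.75, and its genotypes overlapped through (+/+) 513 at 18.6 CPM, just under (+/−) 506 at 18.7 CPM.

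Receptor phosphatases of the LAR type are a second family of presynaptic organisers, and 17 of 22 of these and their partners were negative (median −0.25, 6 separated downward and 1 upward, 3 at an unadjusted p under 0.05 downward and 1 upward, 2 called lower by DESeq2). *Lrfn1*, a postsynaptic SALM protein, was at 35.3, 57.7 and 55.8 CPM in (+/−) cultures, against 81.1, 92.3 and 63.7 CPM in (+/+) cultures. The genotypes did not overlap (log2 fold change −0.67, SE 0.21, edgeR adjusted p = 0.17). *Lrfn5*, of the same family, and *Ntng2*, a lipid-anchored netrin-G, were both at −0.49 and also separated.

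The other contactin, Caspr and L1 family genes were negative for 14 of 15 (median −0.31, 5 separated downward, 2 at an unadjusted p under 0.05, 2 called lower by DESeq2). *Cntnap5a*, a relative of *Cntnap2*, was at 5.16, 7.19 and 7.35 CPM in (+/−) cultures, against 10.9, 13.2 and 9.53 CPM in (+/+) cultures. Its log2 fold change was −0.77 (SE 0.18, edgeR adjusted p = 0.17), with *Cntnap5c* at −0.83 and *Cntn3* at −0.56, all 3 with separated genotypes.

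Of 9 other immunoglobulin and cadherin adhesion genes 7 were negative (median −0.21, 5 separated downward, 2 at an unadjusted p under 0.05, 2 called lower by DESeq2). *Cadm2*, a SynCAM protein that joins synaptic membranes, was at 102, 154 and 152 CPM in (+/−) cultures, against 198, 245 and 177 CPM in (+/+) cultures. Every (+/−) culture was below every (+/+) culture (log2 fold change −0.60, SE 0.19, edgeR adjusted p = 0.17), and likewise for *Cadm3* (−0.55) and *Nectin1* (−0.49).

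All 12 cytoplasmic scaffold genes were negative (median −0.32, 5 separated downward), and DESeq2 called 0 of them, with 5 at an unadjusted p under 0.05 from edgeR. *Dlg4*, which encodes PSD-95, was at 310, 422 and 441 CPM in (+/−) cultures, against 509, 537 and 477 CPM in (+/+) cultures. The genotypes were separated at a log2 fold change of −0.38 (SE 0.15, edgeR adjusted p = 0.20). *Dlg2* (−0.42) and *Cask*, which binds the tails of neurexins (−0.18), were separated too.

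**Figure D5:**
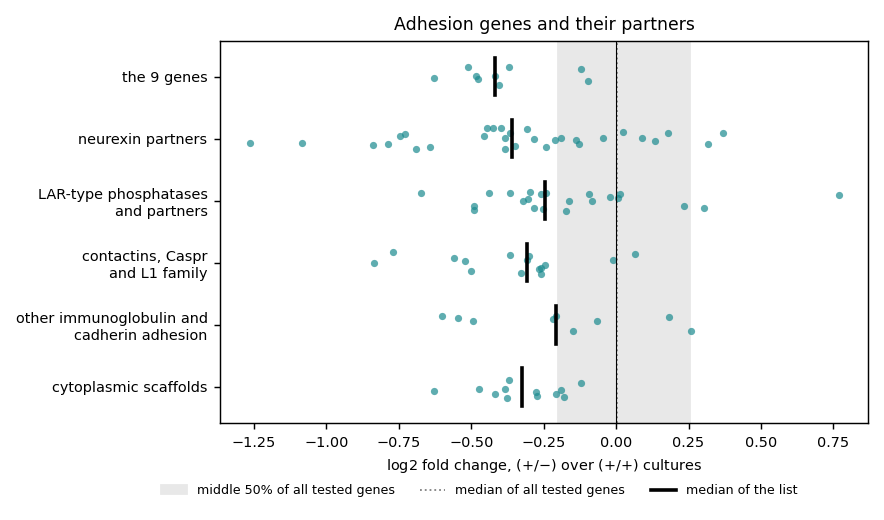
Log2 fold change, (+/−) over (+/+) cultures, of each gene (points) in the 9 adhesion genes and 5 lists of partners, with list medians (black bars) and the middle 50% of all genes tested (grey band, −0.20 to 0.25). All list medians lie below 0, and the median of all genes tested was 0.0031.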

How the data were processed

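The deposited values used were raw counts per gene and library with each gene's exon length in bases (a file column in another unit), which the authors made from 100-base paired-end reads of dUTP libraries mapped to mm10 with STAR, per the methods and processing notes. The counting tool and its use of strand are not given in the sources used here, nor is how one library of an animal differs from the other. The deposited normalised counts and the authors' DESeq2 table (shrunken log2 fold changes, p-values and adjusted p-values) were not used.

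Counts of both libraries were summed per animal (20181477 to 26594444 counts per library). In R 4.3.3, edgeR 4.0.16 filtered low counts by genotype, scaled by TMM and tested 3 (+/−) against 3 (+/+) animals by quasi-likelihood, with Benjamini-Hochberg adjustment over 18264 genes and a threshold of 0.1. The fit was tested on simulated data. The SE from edgeR was the absolute log2 fold change divided by the square root of the quasi-likelihood F statistic, so it restates the fold change and its test. CPM refer to the TMM-scaled library, and log2 CPM used a pseudocount of 0.1 CPM. Exact permutation tests of single values were two-sided (SciPy 1.17.1). The members and gene lists were chosen with earlier results of these data known, so no list was tested. Named genes were the 9 members, the 3 of smallest p in each list, genes overlapping a member and the 5 nearest in pattern. Alternatives were DESeq2 1.42.0 or its size factors, no filter, genetic sex as a covariate, either library alone, limma 3.58.1 on 12 libraries with a replicate block, excitatory markers, and each animal left out. Sequences came from GENCODE M21 and RefSeq (GRCm38.p6). Positions of the 9 genes are those of the count table and equal those of GENCODE M21.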

Additional observations from a re-analysis of the deposited data

How the results depend on the processing

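All 9 log2 fold changes were negative under each alternative except that without (+/−) 505 *Nlgn3* was at 0.023 and *Lrrtm2* at 0.15; with 1 animal left out *Nlgn3* ran from −0.21 to 0.023 and *Lrrtm2* from −0.38 to 0.15. Counts of calls depended on the test. Against 0 genes called, DESeq2 called 2096 (1324 higher and 772 lower in (+/−)), edgeR without the filter 1475 (1021 and 454), and limma on 12 libraries with the library number as a replicate block and the animal as a random effect 3597 (1868 and 1729). With 1 animal left out the count was 0 to 3403 (0 to 2294 higher, 0 to 1109 lower), above 0 only without (+/+) 513. Members called were 2 with DESeq2, 2 without the filter (*Nlgn2* and *Lrrtm1* in both), 7 with the replicate block (not *Nlgn3* and *Lrrtm2*) and 0 to 1 with 1 animal left out. Genes of the partner lists called were 12, 11, 38 and 0 to 12 under the same alternatives, against 0. Of all genes, DESeq2 called 4.33% lower, and edgeR without (+/+) 513 called 5.95% lower. This share was not computed without the filter or with the replicate block, so the counts there lack a background. The replicate block also enters the 2 libraries of an animal separately. The library numbers did not pair the animals, since deviations of same-numbered libraries correlated at −0.026 to 0.028 between animals. DESeq2's size factors, genetic sex as a covariate and either library alone called 0 genes. Since 511 was the only female, the sex covariate nearly repeated the fit without 511, with *Nlgn2* at −0.419 and −0.421. These alternatives are not separate checks. Members separated from the neuronal markers numbered 2, but 1 in library 1 alone, 4 against excitatory markers and 2 to 3 with 1 animal left out, the added member separated downward without 505 (*Nlgn2*), 510 (*Cntnap2*) or 513 (*Lrrtm1*) and upward without 511 (*Nrxn3*). Separated ratios numbered 2, but 1 in library 1 alone and 2 to 4 with 1 animal left out, 4 without (+/−) 505. Members with separated genotypes numbered 4 to 6 with 1 animal left out. For these counts of separated members and ratios the share of all genes was not computed under any alternative, so they lack a background. With fewer animals genotypes separate more easily. The causes were not tested. With 3 animals a genotype an exact test cannot go below p = 0.1. *Lrrtm2* and *Cntn4* rest on the fewest counts, 367 to 783 and 255 to 634 per animal.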
